A study of Homo sapiens with 9 samples.

Results

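The sites described here are CTCF peaks of MiaPaCa2 cells at which a ZEB1 peak of the same line had its summit almost at the same place. They were chosen by the positions of both summits: a CTCF peak was taken when its summit, the base of highest signal, lay within 100 bp of a summit in the ZEB1 list. The rule found 339 of 31754 CTCF peaks, or 1.07% (95% interval 0.957 to 1.19), and 339 different ZEB1 peaks, or 7.06% (6.35 to 7.82) of 4804. They are called coincident sites below. The remaining 31415 CTCF peaks and the remaining 4465 ZEB1 peaks served for comparison.

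The study mapped both proteins by chromatin immunoprecipitation with sequencing (ChIP-seq) in cell lines. ZEB1 was precipitated from unmodified MiaPaCa2 cells (pancreatic ductal adenocarcinoma), from unmodified RKO cells (colon carcinoma), from a MiaPaCa2 clone called WT, and from a MiaPaCa2 clone called delta-Repeat. CTCF was precipitated from unmodified MiaPaCa2 cells. Both clones were grown by dilution from cells electroporated with plasmids for the Cas9 nickase. The delta-Repeat clone also received guide RNA pairs aimed at the repeats upstream of the MIR200A and MIR200B genes, and WT is its control. Each of them is 1 clone, both clones shared 1 lot of the ZEB1 antibody, and MiaPaCa2 and RKO each had a different lot. Each condition had 1 sample with a peak list, so no value here can be set against a spread between cultures and no test between conditions was made. Ranges in parentheses after a share, median or difference are 95% intervals and cover counting error only, and neighbouring peaks are not independent of each other.

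ZEB1 is a repressor with a cluster of zinc fingers at each end that reads E-box sequences, and it is known for silencing epithelial genes during the epithelial-to-mesenchymal transition of carcinoma cells. CTCF reads a long motif with its own array of zinc fingers, holds cohesin at the borders of chromatin loops and domains, and also sits at many promoters. A peak marks DNA recovered with an antibody above background. It does not tell a protein that touches the DNA itself from one held there through other proteins, and 2 peaks at 1 place in a cell population need not come from the same DNA molecule.

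The summits of both proteins met over a broad stretch and not at a single point. In successive steps of 25 bp outward from the CTCF summit, the nearest ZEB1 summit lay in the first step at 76 CTCF peaks, in the second at 82, in the third at 88 and in the fourth at 89. The next steps, outside the rule, held 75, 75, 53 and 45. The count was thus flat up to about 150 bp and fell beyond. The median distance within the coincident sites was 52 bp (47 to 57). Distances of 10 bp or less were found at 28 sites, and at 1 site, on chromosome 10 from 71993478 to 71993743 (build hg19, as are all positions here), both summits fell on the same base. The ZEB1 summit had the higher coordinate at 164 sites and the lower at 174, in similar numbers on both sides. These distances were used by the rule and are given as a description.

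The lists that the rule did not use also had no peak of summits at the CTCF summit itself. The first 4 steps held 74, 72, 66 and 86 CTCF peaks with RKO ZEB1. They held 36, 37, 35 and 30 with ZEB1 of the WT clone and 34, 36, 38 and 37 with ZEB1 of delta-Repeat cells. Further out the lists differed. The next 4 steps held 87, 69, 87 and 72 in RKO, 27, 17, 21 and 17 for WT, and 30, 40, 45 and 44 for delta-Repeat, so the count fell within 200 bp for WT and did not for the other two. Measured in the same steps, ZEB1 summits of MiaPaCa2 lay much closer to ZEB1 summits of RKO, with 646, 508, 335 and 278 peaks. The clones gave 394, 257, 191 and 171 (WT) and 491, 335, 255 and 183 (delta-Repeat). ZEB1 summits of separate samples therefore piled up at distance 0, which ZEB1 and CTCF summits did not in any of the 4 ZEB1 lists.

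**Figure D1:**
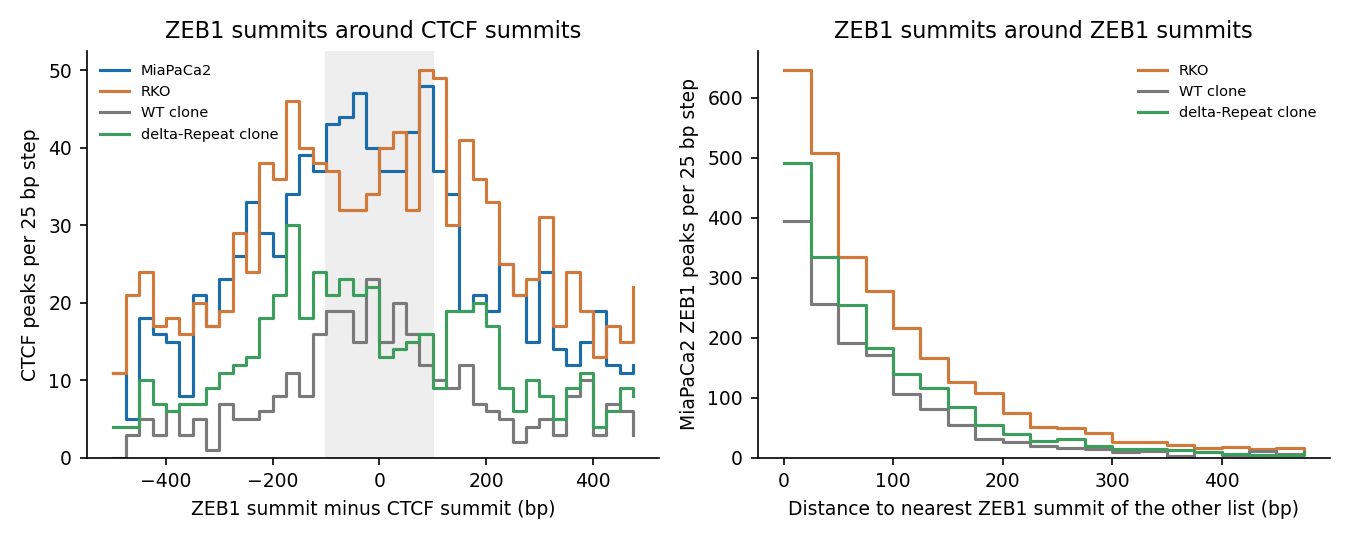
Left: number of CTCF peaks (y axis, per 25 bp step) by the signed distance in bp from the CTCF summit to the nearest ZEB1 summit (x axis), 1 line per ZEB1 list, with the stretch used by the rule for MiaPaCa2 shaded. Right: number of MiaPaCa2 ZEB1 peaks by distance in bp to the nearest ZEB1 summit of each other list, falling from 646 in the first step to 278 in the fourth for RKO, while the lines on the left have no such point at 0.

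Where ZEB1 was also found in another list, its summit there could be placed relative to both MiaPaCa2 summits. Of the ZEB1 peaks at coincident sites, 192 overlapped an RKO ZEB1 peak. The RKO summit lay nearer to the MiaPaCa2 ZEB1 summit at 134 of these sites and nearer to the CTCF summit at 57, with 1 tie (70.2% nearer to ZEB1, 63.1 to 76.5). Its median distance was 57.5 bp (45 to 74) to the ZEB1 summit and 91.5 bp (81 to 106) to the CTCF summit. Of 123 WT clone summits 69.1% (60.1 to 77.1) were nearer to the ZEB1 summit, as were 75.7% (68.04 to 82.2) of 152 delta-Repeat summits. Within these 100 bp the summit of the other list was thus nearer to the ZEB1 summit more often than not. Only peaks that overlapped the MiaPaCa2 ZEB1 peak were counted, with no such demand on the CTCF peak. That choice favours the ZEB1 summit, here and in the set that follows. At ZEB1 peaks that overlapped a CTCF peak with summits further apart, the RKO summit was nearer to ZEB1 in 81.6% (77.2 to 85.4) of 369. The MiaPaCa2 ZEB1 and CTCF summits there were a median of 251.5 bp apart, against 55 bp at the 192 coincident sites.

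All 339 CTCF peaks overlapped their ZEB1 peak, and the ZEB1 summit lay inside the CTCF peak at 334 sites. The CTCF peak lay wholly within the ZEB1 peak at 79 sites (23.3%, 18.9 to 28.2). The ZEB1 peak was the wider of both at 155 sites (45.7%, 40.3 to 51.2). Just inside the limit, at 100 bp, were CTCF peaks on chromosome 1 (201952143 to 201952392, and 228318668 to 228319117) and chromosome 13 (27752135 to 27752388), with CTCF folds of 6.42, 15.6 and 6.68. Another site at 100 bp lay on chromosome 19 (589072 to 589583), with a CTCF fold of 5.59. Just outside were a peak on chromosome 17 (7893231 to 7893900) at 101 bp and peaks on chromosome 12 (56545459 to 56545777) and chromosome 14 (69556915 to 69557374) at 102 bp, with CTCF folds of 22.9, 7.22 and 17.6.

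Coincident sites were most frequent among the strongest and the weakest CTCF peaks. Strength here means the fold enrichment that the authors' list gives for the summit, a linear ratio to background, and it was ranked only within its own list. The quartile groups and deciles below divide a list by this fold. In the weakest quartile group of the CTCF list (folds up to 7.29) 92 of 7939 peaks were coincident, or 1.16% (0.935 to 1.42). The second quartile group had 61 of 7981 (0.764%, 0.585 to 0.981) and the third 66 of 7896 (0.836%, 0.647 to 1.06). The strongest quartile group (folds from 15.5) had 120 of 7938 (1.51%, 1.25 to 1.80). Against the 1.07% of all CTCF peaks, both ends of the list were above and the middle below.

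Each end was then set against the middle of the list. This grouping was not planned beforehand, so its intervals describe the pattern and are no separate check of it. The share was higher than that of both middle quartile groups together (0.800%, 127 of 15877) by 0.712 percentage points (0.423 to 1.03) in the strongest quartile group and by 0.359 points (0.0979 to 0.649) in the weakest. By deciles, the share was 1.54% (1.14 to 2.04) in the weakest decile, 0.683% (0.429 to 1.03) in the fifth and 1.73% (1.31 to 2.25) in the strongest. With members at both ends, the median percentile of the CTCF fold was 56.7 (48.9 to 64.4) at coincident sites against 50.0 (49.3 to 50.5) at the other CTCF peaks. With summits within 50 bp the weakest quartile group had the highest share (0.668%, against 0.388%, 0.355% and 0.617% from the second to the strongest). A stricter threshold on both lists kept peaks with a fold of 5 or more and a −log10 q of 10 or more, which removes weak peaks by construction. Over the quartile groups of that shorter CTCF list the shares from weakest to strongest were 0.423%, 0.266%, 0.423% and 0.861%. There the weakest quartile group was no longer above the third.

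RKO ZEB1, which the rule did not use, gave a like pattern at lower counts, on the same CTCF list. Of all CTCF peaks, 300 had an RKO ZEB1 summit within 100 bp (0.945%), and 195 of these were not coincident in MiaPaCa2. With the MiaPaCa2 sites left out, RKO coincidence was found at 0.701% (0.528 to 0.911) of the weakest quartile group, 0.518% and 0.473% of the middle ones and 0.793% (0.609 to 1.02) of the strongest. The difference from the middle was 0.298 points (0.0852 to 0.541) for the strongest quartile group and 0.206 points (0.00266 to 0.438) for the weakest, whose interval nearly reached 0. Of these 195 peaks, 68 overlapped a MiaPaCa2 ZEB1 peak whose summit lay further away, so the 2 sets are not wholly separate. CTCF in RKO was not analysed here.

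**Figure D2:**
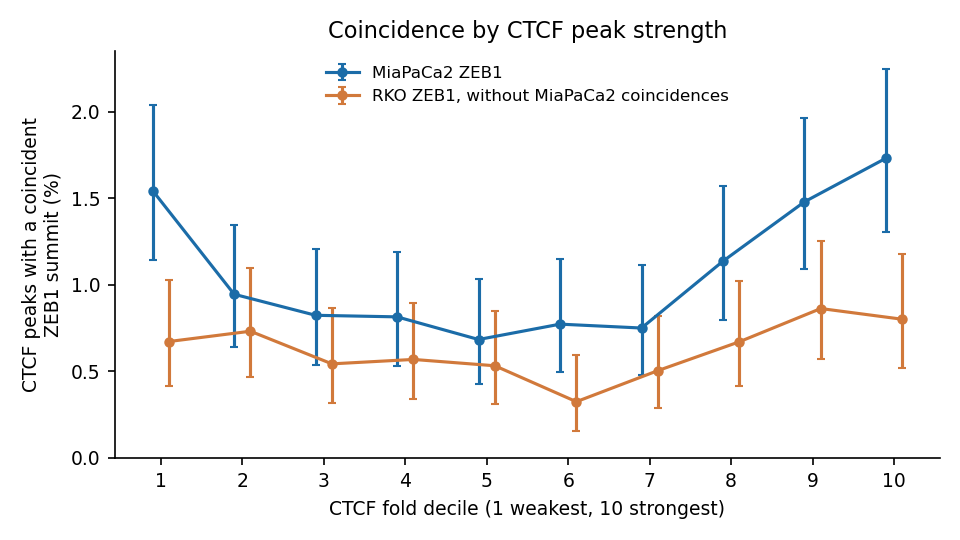
Share of CTCF peaks (%, y axis) with a ZEB1 summit within 100 bp, by deciles of CTCF fold (x axis), with exact 95% intervals as bars. The MiaPaCa2 line runs from 1.54% in the weakest decile through 0.683% in the fifth to 1.73% in the strongest, and the RKO line, which leaves out the coincident sites of MiaPaCa2, stays below 1% throughout.

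The ZEB1 peaks at coincident sites spanned the whole ZEB1 list. Their median fold was 6.81 (6.47 to 7.27) against 6.53 (6.47 to 6.65) for all other ZEB1 peaks, and their median percentile was 54.5 (48.4 to 60.0) against 49.8 (48.4 to 51.2). From the weakest to the strongest quartile group of ZEB1 folds, 71, 84, 96 and 88 peaks were at coincident sites. These were 5.96% (4.68 to 7.45), 6.89% (5.53 to 8.46), 8.05% (6.57 to 9.74) and 7.33% (5.92 to 8.96) of each quartile group, with intervals that overlapped. Across the 339 sites Spearman's rho between CTCF and ZEB1 fold was 0.14, a description over sites that share 2 libraries.

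Strong ZEB1 peaks were found in every quartile group of the CTCF list, both ends included. Of all 339 coincident sites, 88 had a ZEB1 peak of the strongest quartile group. The middle CTCF quartile groups had 12 of 61 and 13 of 66 such sites, and the difference from the ends was not tested. Among the 92 sites in the weakest CTCF quartile group the count was 26, and among the 120 in the strongest it was 37. At these 26 the ZEB1 peak was wide, with a median of 750 bp (611 to 976), and the CTCF peak narrow, with a median of 282.5 bp (240 to 323). At 25 of the 26 the CTCF peak lay wholly within the ZEB1 peak. At the 37 sites that were in the strongest quartile group of both lists, the median widths were 628 bp (517 to 655) for ZEB1 and 583 bp (511 to 617) for CTCF, and the CTCF peak lay within the ZEB1 peak at 8. Widths follow folds in peak lists, with a rho of 0.73 for CTCF and 0.66 for ZEB1 over the coincident sites, so much of this contrast in width is set by picking sites by fold. All other CTCF peaks of the weakest quartile group had a median of 264 bp, and all other ZEB1 peaks of the strongest had 685 bp (662 to 706). The summits were a median of 46.5 bp (34 to 68) apart in the first set and 62 bp (41 to 78) in the second. The part of the strong ZEB1 signal in these weak CTCF calls was not tested. Of the 92 sites in the weakest CTCF quartile group, 18 passed the stricter threshold in the CTCF list, which removes weak peaks by construction. The share for other CTCF peaks of that quartile group was not computed, so the count does not set these sites apart.

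Recurrence of ZEB1 at these extremes was higher where ZEB1 was strong, as it was at other ZEB1 peaks. ZEB1 was in RKO and both clones at 19 of the 26 sites with weak CTCF and strong ZEB1 (73.1%, 52.2 to 88.4) and at 28 of the 37 strong in both (75.7%, 58.8 to 88.2). It was in all of these lists at none of the 25 sites weak in both, which allows up to 13.7%, and at none of the 17 with strong CTCF and weak ZEB1, which allows up to 19.5%. In RKO, by itself or with a clone, ZEB1 was found at 22 of the 26 (84.6%), 35 of the 37 (94.6%), 11 of the 25 and 8 of the 17. Other ZEB1 peaks were in all of these lists at 62.0% in the strongest ZEB1 quartile group and 0.803% in the weakest. Their shares in RKO were 83.9% and 41.7%. The intervals for presence in all lists at these sites include the shares of other ZEB1 peaks of like strength. The difference between weak and strong CTCF peaks was not tested in these small sets. The median summit distance over all coincident sites of a CTCF quartile group, from weakest to strongest, was 41 bp (32 to 56), 49 bp (32 to 61), 55 bp (45 to 61) and 62 bp (50 to 73), with intervals that overlapped.

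**Figure D3:**
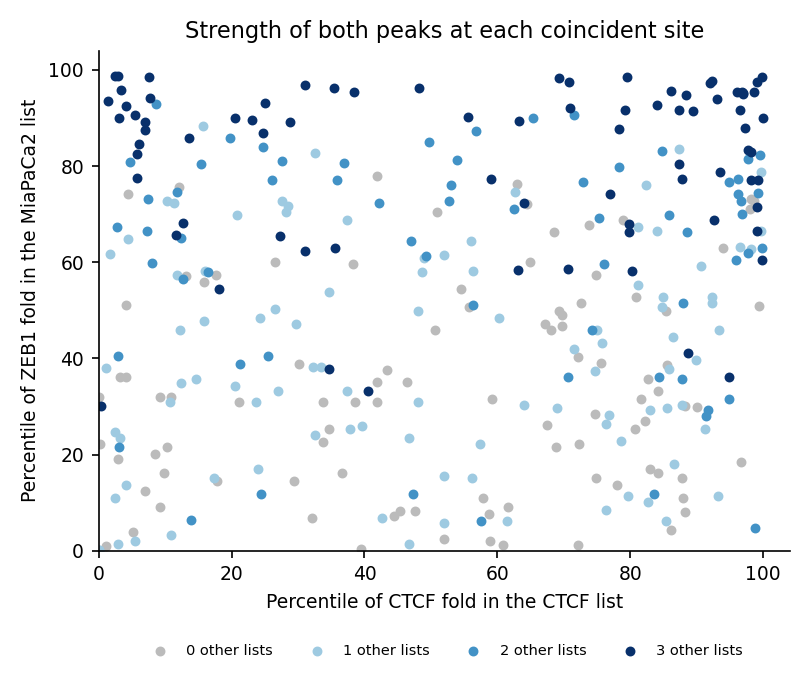
Each point is 1 of the 339 coincident sites, placed by the percentile of its CTCF fold in the CTCF list (x axis) and of its ZEB1 fold in the MiaPaCa2 ZEB1 list (y axis), and coloured by how many of the RKO, WT clone and delta-Repeat clone lists held the ZEB1 peak. Points lie in all parts of the plot, and dark points, for sites in all 3 lists, gather at high ZEB1 percentiles at both low and high CTCF percentiles.

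The 3 sites of highest ZEB1 fold carried weak CTCF peaks. On chromosome 18 the ZEB1 peak (8706519 to 8707597) had a fold of 36.3 and rank 57 of 4804, and its fold was 36.8 in RKO, 23.5 in WT clone cells and 30.6 in delta-Repeat cells. The CTCF peak there (8707080 to 8707320) had a fold of 4.59 and rank 30937 of 31754. On chromosome 16 the ZEB1 peak (67279945 to 67281435) had folds of 35.2, 24.3, 16.4 and 20.2 in the order MiaPaCa2, RKO, WT, delta-Repeat, and the CTCF peak (67280691 to 67280930) a fold of 4.66. On chromosome 15 the ZEB1 folds were 33.2, 23.2, 19.1 and 27.7 (74666657 to 74667685), and the CTCF fold was 5.35 (74666934 to 74667133). Folds of separate lists are shown side by side and are not comparable in size. Each of these ZEB1 peaks was in the upper ranks of all 4 lists, between 33 and 133.

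The 10 sites of highest ZEB1 fold, which ran from 24.2 to 36.3, were all present in RKO and in both clones. Of other ZEB1 peaks in the whole strongest quartile group 62.0% were, and the share for other ZEB1 peaks of such high rank was not computed. Apart from the 3 above, they were on chromosome 16 (81068721 to 81069459), chromosome 11 (118800914 to 118801359), chromosome 12 (48137798 to 48138227, and 6944827 to 6945293), chromosome 1 (27995640 to 27995998) and chromosome 6 (136871485 to 136872091, and 166795283 to 166795822), given by their CTCF peaks. Their CTCF folds were 53.7, 16.6, 14.3, 14.6, 21.7, 35.0 and 21.5 in that order. Of the 100 strongest ZEB1 peaks, 6 were at coincident sites, near the 7.06% of all ZEB1 peaks.

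Of the 10 sites of highest CTCF fold, which ran from 35.5 to 77.1, 4 had ZEB1 in RKO and both clones. It was in RKO at 8, in the WT clone at 5 and in delta-Repeat cells at 7. In the same order, the shares were 23.6%, 56.6%, 36.3% and 45.1% of all coincident sites. Of other ZEB1 peaks they were 18.7%, 57.4%, 28.8% and 37.5%. The difference was not tested in so small a set. The strongest lay on chromosome 2 from 220406175 to 220407104 and was the second strongest peak of the whole CTCF list, with a fold of 77.1 and a width of 930 bp. Its ZEB1 peak (220406368 to 220407440) had a fold of 13.8, with 15.96 in RKO, 8.47 in the WT clone and 18.6 in delta-Repeat cells, and summits 23 bp apart. The second, on chromosome 16 from 81068721 to 81069459, is also among the 10 of highest ZEB1 fold (CTCF fold 53.7, ZEB1 fold 33.0). The third, on chromosome 16 from 4303952 to 4304388, combined a CTCF fold of 52.6 with a ZEB1 fold of 7.30 and was in all lists, as was a site on chromosome 15 from 77835688 to 77836348 (35.5 and 9.33). These 4 were the sites of the 10 whose ZEB1 peak was in all 4 lists.

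The other 6 sites of high CTCF fold lacked ZEB1 in at least 1 list. A site on chromosome 17 from 8286488 to 8287177 (CTCF fold 49.6, ZEB1 fold 7.60) and one on chromosome 16 from 68554413 to 68555168 (40.7 and 10.4) had no WT clone peak. Sites on chromosome 6 from 41336085 to 41337066 (44.5 and 7.91) and chromosome 17 from 27229979 to 27230601 (43.6 and 9.61) had ZEB1 in RKO and in neither clone. A site on chromosome 2 from 69533902 to 69534899 (36.5 and 8.92) had it in both clones and not in RKO. On chromosome 21 from 39047306 to 39048076 (37.2 and 6.60) no other list held the ZEB1 peak. The ZEB1 folds of these 6 lay between 6.60 and 10.4, and those of the 4 in all lists between 7.30 and 33.0, so the ranges overlapped. Of the 100 strongest CTCF peaks, 4 were coincident sites, against 1.07% of all CTCF peaks.

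Sites strong in both lists were ranked by the lower of their 2 fold percentiles. The leading 5 lay on chromosome 16 (81068721 to 81069459), chromosome 6 (136871485 to 136872091), chromosome 2 (113956297 to 113957060), chromosome 22 (22549477 to 22550175) and chromosome 7 (98050253 to 98050760). Their CTCF folds were 53.7, 35.0, 31.6, 25.9 and 25.05 and their ZEB1 folds 33.0, 25.9, 20.0, 20.0 and 19.7. In each of them the ZEB1 peak was also in RKO and both clones. The ranking takes strong ZEB1 peaks, which recur more often by themselves. Of other ZEB1 peaks in the strongest quartile group, 62.0% were in all of these lists. The site on chromosome 6 had rank 12 in delta-Repeat cells (fold 37.4), rank 51 in WT clone cells (fold 23.7), rank 117 in MiaPaCa2 and rank 593 in RKO (fold 12.3).

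The CTCF peaks at coincident sites were wider than other CTCF peaks in the upper part of the list. Over all strengths the median width was 433 bp (416 to 457), with an interquartile range of 323 to 567.5 bp, against 387 bp (385 to 388) with a range of 309 to 469 bp. In the weakest quartile group of CTCF folds the medians were 265.5 bp (244 to 288) and 264 bp (261 to 266), and in the second 358 bp (335 to 420) and 357 bp (355 to 358). In the third quartile group they were 459.5 bp (430 to 488) and 419 bp (417 to 421), and in the strongest 573 bp (518 to 601) and 485 bp (482 to 488). The intervals were apart in the upper 2 quartile groups and overlapped in the lower 2. Under the stricter threshold the medians were 499 bp and 413 bp. The greater width over all strengths was not particular to the coincident sites. CTCF peaks outside the rule with an RKO ZEB1 summit within 100 bp had a median of 420 bp (400 to 470). With a WT clone summit it was 483 bp (393 to 527) over 46 peaks, and with a delta-Repeat clone summit 444 bp (342 to 492) over 57. The delta-Repeat interval includes the 387 bp of other CTCF peaks. A MiaPaCa2 ZEB1 peak overlapped 68 of the 195 peaks with an RKO summit, 34 of the 46 and 35 of the 57. These sets are thus not wholly separate from the coincident sites.

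**Figure D4:**
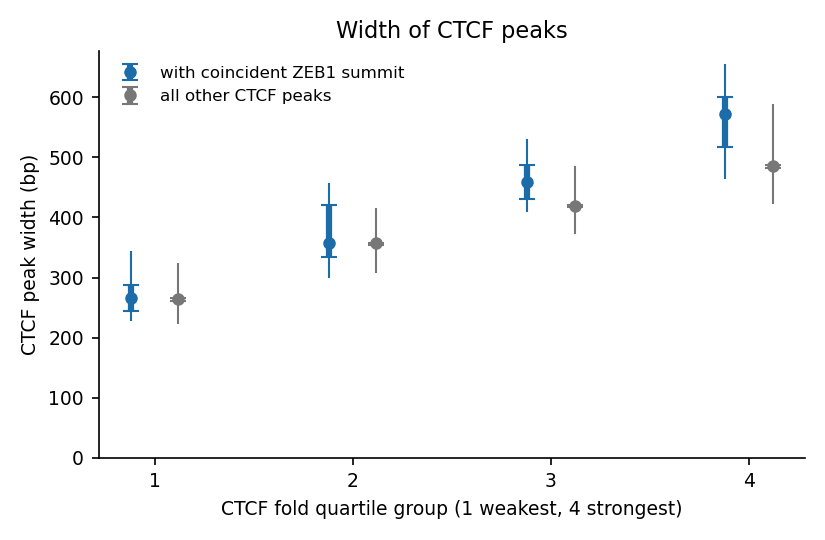
CTCF peak width in bp (y axis) by quartile groups of CTCF fold (x axis) for coincident sites and all other CTCF peaks. Points are medians, thick bars with caps their exact 95% intervals and thin lines the interquartile range; the medians are 573 and 485 bp in the strongest quartile group and 265.5 and 264 bp in the weakest.

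The coincident sites lay where CTCF peaks were dense. Another CTCF summit lay within 5 kb at 115 of 339 sites, or 33.9% (28.9 to 39.2), against 23.7% (23.2 to 24.1) of the other CTCF peaks and 23.8% of all, a difference of 10.2 percentage points (5.39 to 15.5). The median distance to the next CTCF summit was 10122 bp (8011 to 12195) against 15922 bp (15555 to 16330). By CTCF fold, from weakest to strongest, the share was 40.2%, 29.5%, 27.3% and 35.0% at coincident sites and 24.5%, 20.9%, 23.2% and 26.2% at other CTCF peaks, so it was higher in each quartile group. Of the 195 CTCF peaks with an RKO ZEB1 summit that were not coincident in MiaPaCa2, 36.4% (29.7 to 43.6) had such a neighbour. The coincident sites themselves were scattered, with a median of 1321540 bp to the next one, and 29 lay within 100 kb of another.

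Coincident sites lay near chromosome ends more often than other CTCF peaks. The outer 5 Mb held 55 of 339, or 16.2% (12.5 to 20.6), against 10.6% (10.3 to 10.97) of other CTCF peaks, 10.7% of all CTCF peaks, and 20.4% (19.3 to 21.7) of other ZEB1 peaks. The difference from other CTCF peaks was 5.60 points (2.04 to 9.91). The difference from other ZEB1 peaks was not tested, and the intervals of those shares overlapped. In the outer 2 Mb the shares were 8.85%, 4.76% and 11.4%, and in the outer 10 Mb 24.2%, 18.7% and 29.5%. With summits within 50 bp the 5 Mb share was 14.3%, and the difference of 3.62 points had an interval from -0.965 to 9.87. A higher 5 Mb share was not particular to the coincident sites. CTCF peaks outside the rule with an RKO ZEB1 summit within 100 bp had 20.0% (14.6 to 26.3). With a WT clone summit it was 15.2% (6.34 to 28.9) of 46 peaks, and with a delta-Repeat clone summit 12.3% (5.08 to 23.7) of 57. The clone intervals include the share of other CTCF peaks.

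By chromosome, between 0.206% and 2.03% of CTCF peaks were coincident. The highest shares were on chromosome 21 (7 of 344, 2.03%, 0.822 to 4.15) and chromosome 19 (26 of 1399, 1.86%, 1.22 to 2.71), and the lowest on chromosome X (2 of 972, 0.206%, 0.0249 to 0.741) and chromosome 4 (7 of 1286, 0.544%, 0.219 to 1.12). The intervals of chromosomes 19 and X are above and below the 1.07% of all CTCF peaks, and those of chromosomes 21 and 4 include it. ZEB1 peaks were themselves rare on X, with 7.00 for each 100 CTCF peaks, and frequent on chromosome 19, with 20.01. As a share of ZEB1 peaks, the coincident sites made up 2.94% (0.358 to 10.2) on X and 9.29% (6.16 to 13.3) on chromosome 19, intervals that both include the 7.06% of the whole list. Both sites on X had a CTCF peak, at 119763460 to 119763716 (fold 5.66) and at 153029105 to 153029825 (fold 29.2), and ZEB1 at the second was in all lists.

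ZEB1 peaks at coincident sites recurred in each clone more often than other ZEB1 peaks, while in RKO no difference was detectable. In RKO 192 of 339 were present by an overlap of at least 1 bp, or 56.6% (51.2 to 62.0), against 57.4% (55.96 to 58.9) of the other ZEB1 peaks and 57.4% of all. The difference was -0.787 points (-6.30 to 4.59), an interval that leaves room for several points either way. It was 2.16 points (-3.07 to 7.63) with presence by summits within 100 bp, 3.77 points (-1.65 to 9.28) by 50% of both peaks and 2.55 points (-6.42 to 10.8) under the stricter threshold, so its sign was not settled. In the WT clone 123 were present, or 36.3% (31.2 to 41.7), against 28.8% (27.5 to 30.1) of the others and 29.3% of all, a difference of 7.50 points (2.39 to 12.9). In delta-Repeat cells 153 were present, or 45.1% (39.8 to 50.6), against 37.5% (36.1 to 38.9) of the others and 38.0% of all, a difference of 7.64 points (2.24 to 13.1). Under the stricter threshold the differences in the clones fell to 3.81 points (-4.60 to 12.8) and 2.84 points (-5.97 to 11.8), and were no longer apart from 0. With summits within 50 bp the difference in delta-Repeat cells was 7.56 points with an interval from -0.0580 to 15.4. Whether the differences from other ZEB1 peaks are themselves unlike in RKO and in the clones was not tested.

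Recurrence was higher at stronger ZEB1 peaks, at coincident sites as elsewhere. From the weakest to the strongest quartile group of ZEB1 folds, presence in RKO was 35.2%, 41.7%, 57.3% and 87.5% at coincident sites and 41.7%, 46.6%, 57.8% and 83.9% at the other ZEB1 peaks. Among WT clone peaks it was 9.86%, 16.7%, 33.3% and 79.5% against 4.46%, 10.1%, 24.3% and 76.7%, and among delta-Repeat peaks 14.1%, 25%, 47.9% and 86.4% against 11.6%, 19.9%, 35.4% and 83.6%. In each quartile group the values of both clones were above those of the other peaks, although the intervals overlapped in every quartile group. Weighted to the ZEB1 strengths of the coincident sites, the other ZEB1 peaks had presence shares of 58.4% in RKO, 30.2% in the WT clone and 39.1% among delta-Repeat peaks. With strength held in this way, the shares at coincident sites were still the higher in both clones. The weighted shares carry no interval.

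**Figure D5:**
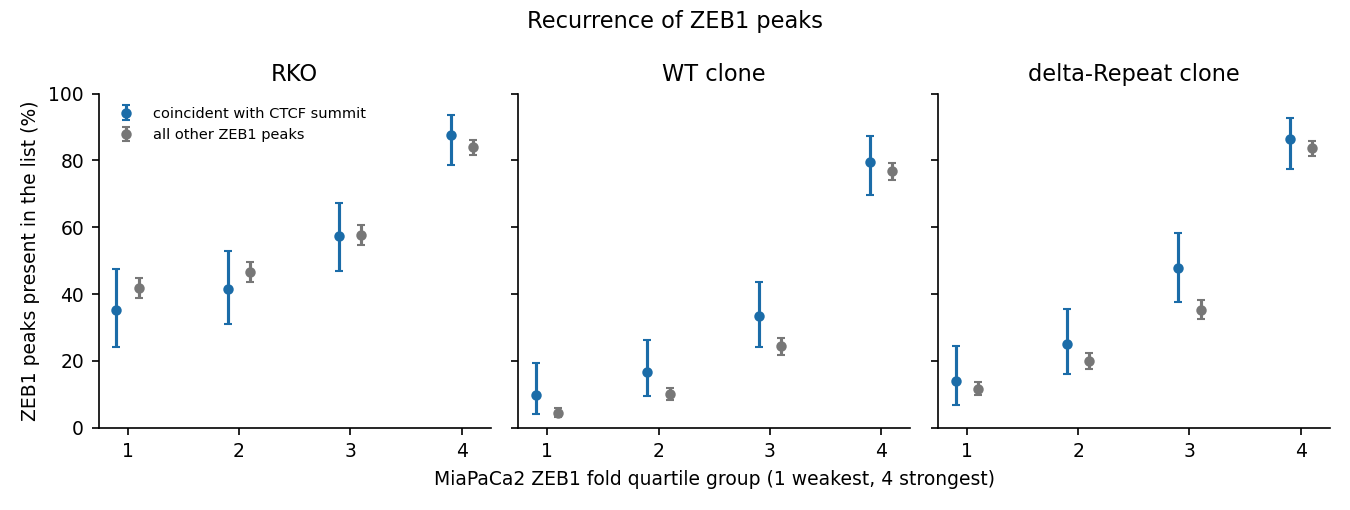
Share of MiaPaCa2 ZEB1 peaks (%, y axis) that overlapped a ZEB1 peak of RKO or of either clone, by quartile groups of MiaPaCa2 ZEB1 fold (x axis), for coincident sites and all other ZEB1 peaks, with exact 95% intervals. All 3 panels rise with strength, in RKO from 35.2% to 87.5% at coincident sites, and the WT clone panel shows 33.3% against 24.3% in the third quartile group.

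The ZEB1 peaks that overlapped a CTCF peak with summits more than 100 bp apart were counted in the same way. These 632 peaks were present in RKO at 58.5% (54.6 to 62.4), in WT clone cells at 32.3% (28.6 to 36.1) and in delta-Repeat cells at 45.4% (41.5 to 49.4). For the 3833 ZEB1 peaks with no CTCF overlap the shares were 57.2% (55.7 to 58.8), 28.2% (26.8 to 29.7) and 36.2% (34.7 to 37.7). With summits further apart the share was thus close to the 45.1% of coincident sites in delta-Repeat cells, between the coincident sites and the peaks without CTCF in WT clone cells, and above both in RKO, where all 3 intervals overlapped.

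Across the lists, 80 coincident sites had ZEB1 in RKO and both clones (23.6%, 19.2 to 28.5, against 18.7%, 17.5 to 19.9, of the other ZEB1 peaks). The ZEB1 peak of 96 was in none of these lists (28.3%, 23.6 to 33.4, against 30.9%, 29.5 to 32.2). A further 62 had it in RKO and in neither clone (18.3%, against 24.8% of the other ZEB1 peaks). It was in RKO and delta-Repeat cells at 34 (10.03% against 9.81%), and in RKO and the WT clone at 16 (4.72% against 4.12%). Without RKO, 24 had it in delta-Repeat cells only (7.08% against 5.73%) and 12 in WT clone cells only (3.54% against 2.71%). Both clones without RKO had it at 15 (4.42% against 3.27%). These differences were not tested. The clone lists are short, with 1515 and 2160 peaks, and read depth is unknown, so a peak absent from a clone list may lie under its threshold.

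The coincidence itself was looked up in the lists that the rule did not use. An RKO ZEB1 summit lay within 100 bp of the CTCF summit at 105 coincident sites (31.0%, 26.1 to 36.2), a WT clone summit at 94 (27.7%, 23.03 to 32.8) and a delta-Repeat clone summit at 88 (26.0%, 21.4 to 31.0). Of all CTCF peaks the shares were 0.945%, 0.441% and 0.457%. A CTCF peak chosen for a ZEB1 peak in 1 list has more ZEB1 peaks to meet in the next, so the distance between these shares is in part set by the choice. Of the 192 sites with an RKO ZEB1 peak, 54.7% (47.4 to 61.9) kept a summit within 100 bp, of the 123 with a WT clone peak 76.4% (67.9 to 83.6), and of the 153 with a delta-Repeat clone peak 57.5% (49.3 to 65.5). At 35 sites (10.3%, 7.30 to 14.1) the summits were within 100 bp in all 4 ZEB1 lists.

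Presence in RKO and in WT clone cells also varied with the strength of CTCF. From the weakest to the strongest quartile group of CTCF folds, the ZEB1 peak was in RKO at 57.6% (46.9 to 67.9), 55.7% (42.4 to 68.5), 34.8% (23.5 to 47.6) and 68.3% (59.2 to 76.5) of coincident sites. The third quartile group was the lowest and its interval lay apart from that of the strongest. In WT clone cells it was 38.04%, 22.95% (13.2 to 35.5), 27.3% and 46.7% (37.5 to 55.99), with the second as the lowest and apart from the strongest. In delta-Repeat cells it was 50%, 39.3%, 37.9% and 48.3%, and all intervals overlapped. The median ZEB1 percentile of these quartile groups was 56.2, 40.5, 49.4 and 62.9, so the strongest quartile group also had the strongest ZEB1 peaks. The part of ZEB1 strength in this pattern was not tested.

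At 15 coincident sites (4.42%, against 3.27% of other ZEB1 peaks) ZEB1 was in MiaPaCa2 and both clones and not in RKO. By ZEB1 fold the leading 5 lay on chromosome 5 (77591461 to 77591809), chromosome 19 (56142951 to 56143364), chromosome 13 (27752135 to 27752388), chromosome 3 (197806946 to 197807651) and chromosome 20 (62669938 to 62670737), given by their CTCF peaks. Their MiaPaCa2 ZEB1 folds were 15.98, 14.3, 11.5, 9.99 and 9.34. The first had WT and delta-Repeat folds of 11.98 and 12.9 and a CTCF fold of 5.49, in the weakest decile of the CTCF list. The fifth had the strongest CTCF peak of these, with a fold of 25.3, and clone folds of 7.60 and 5.52. The summits on chromosome 3 were 1 bp apart.

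The leading sites with ZEB1 in RKO and in neither clone had ZEB1 folds that ran lower, with some overlap. They lay on chromosome 1 (19980043 to 19980552), chromosome 17 (27229979 to 27230601), chromosome 15 (68842626 to 68843268) and chromosome 11 (3830291 to 3830645, and 364428 to 364823). Their MiaPaCa2 ZEB1 folds were 10.7, 9.61, 9.12, 8.96 and 8.64 and their RKO folds 5.82, 10.7, 7.02, 5.03 and 6.36. Their CTCF folds were 19.2, 43.6, 17.4, 12.95 and 7.57. Their ranks in the MiaPaCa2 ZEB1 list ran from 790 to 1302, against 344 to 1095 for the 5 sites above. The clone lists held few of the weak ZEB1 peaks, so the choice of sites absent from both clones by itself favours lower folds.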

How the data were processed

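Tools named in the submitters' processing notes are MACS2, version 2.1.0.20150731, then Bowtie2 with version 2.2.6, as well as SAMtools, with GRCh37 (hg19) as the build. Which input served as control for which list, and whether inputs were pooled, the sources used here do not say. For each peak the deposited lists give its position, the authors' fold (a linear ratio at the summit), −log10 p and q values, a score, which was not used, and the offset of the summit. Read depth is unknown from the lists.

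Summits were matched and shares and medians computed with pandas 2.3.3 and numpy 2.4.6 under Python 3.11.15. Intervals came from statsmodels 0.14.6 or scipy 1.17.1, and matplotlib 3.10.9 drew the figures. Shares carry exact Clopper-Pearson, medians exact order-statistic and differences of shares Newcombe 95% intervals. Quartile groups and deciles divide a list by fold. A chromosome's length was taken as its largest peak end, and the short-arm ends of chromosomes 13, 14, 15, 21 and 22 were left out of the outer stretches. On lists with 200 planted coincident summits, the matching found 200.

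The sites and comparisons were chosen with earlier results of these data known. Sites named are the 10 of highest CTCF fold, the 10 of highest ZEB1 fold, the 5 strongest in both lists, the 5 of highest ZEB1 fold in both clones and not in RKO, the 5 in RKO and neither clone, the 3 on each side of 100 bp (ties by position), and, chosen after their values were seen, the site at distance 0, the other site at 100 bp and both sites on chromosome X. Alternatives were summits within 50 or 200 bp, a stricter threshold, other rules of presence and other distances from chromosome ends. Positions are on hg19 and count from 1. Genes, motifs and sequences under the peaks are not given, because a genome of that build was not used here. The 4 input samples were not analysed here.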

Additional observations from a re-analysis of the deposited data

How the results depend on the processing

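No paired analysis was possible because no condition had a second sample. With summits within 50 bp, 0.507% of CTCF peaks (161) were coincident, their median width was 414 bp and their median CTCF fold percentile 46.7. Within 200 bp 1.84% (585) were. The stricter threshold left 126 sites or 0.493% of the CTCF peaks that passed it, with a median width of 499 bp and 62.7% present in RKO. Their median fold percentiles, ranked anew within the shortened lists, were 70.7 for CTCF and 44.2 for ZEB1. These percentiles are not comparable with those of the full lists. Presence by summits within 100 bp was 38.9% in RKO, 29.5% in WT clone cells and 32.4% in delta-Repeat cells, and by 50% of both peaks 45.4%, 27.4% and 36.3%. These rules lower presence by construction. The outer 2 Mb held 8.85% and the outer 10 Mb 24.2% of sites. The other 15 planned values stayed within their interval.

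Differences from the other peaks were added after seeing the data. The interval came to include 0 for the outer 5 Mb (3.62 points) and the delta-Repeat clone (7.56 points) within 50 bp, and for the WT clone (3.81) and the delta-Repeat clone (2.84) under the stricter threshold. Fewer sites enter both settings. Under the stricter threshold the WT clone held 39.7% of coincident sites and 35.9% of other ZEB1 peaks (36.3% and 28.8% in the full lists). In delta-Repeat cells the shares were 47.6% and 44.8% (45.1% and 37.5% in the full lists). The cause was not tested. The other 19 differences stayed on their side of 0 or, for RKO, included it.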
